A study of Caenorhabditis elegans with 12 samples.

Results

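CER elements are the long terminal repeat (LTR) retrotransposons of the nematode Caenorhabditis elegans. The deposited table lists their genomic copies 1 by 1, and the copies described here are the 562 rows named CER followed by a number and ending in a copy number, out of 53925 repeat copies in all. They fall into 39 of 179 repeat families. Of these, 21 families with 218 copies are LTR parts and 18 families with 344 copies are internal parts. The table's suffixes _CE and _CE-int are left out of the names below, so that CER9-I_2 is copy 2 of the internal part of CER9.

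An LTR retrotransposon is copied through RNA. Its LTRs hold the signals for starting and ending transcription, and the internal part between them encodes Gag, which forms capsids, and the Pol enzymes, which reverse transcribe and integrate the element. Most copies in a genome are old fragments, while Cer1, an element of the Ty3/gypsy type, is known for capsids in adult germ cells that are more abundant at lower growth temperatures. Methylation of lysine 9 of histone H3 (H3K9) and germline small RNAs are known to hold repeats silent in this animal, and SET-25 is one of the H3K9 methyltransferases.

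Total RNA of whole gravid adults was sequenced in 4 groups of 3 libraries after ribosomal RNA depletion and without poly(A) selection. The control was the wild-type strain N2 kept at 20 °C and processed in parallel, with its hours of growth not stated apart from the others. The F0 group was N2 shifted to 25 °C as L4 larvae, kept there for 5 generations and collected 54 to 56 h after eggs were plated. The F3 group descended from F0 animals that were returned to 20 °C as L4 larvae for 3 generations, and was collected at 72 to 76 h. The set-25 group was strain MT17463, which carries set-25(n5021), grown at 20 °C with the same hours of growth as F3. A replicate came from 3 plates of 1500 eggs, so each library is a pool of whole animals, and in such samples fewer cells of a type and less RNA per cell cannot be told apart. The set-25 libraries carry later library numbers than the others, and what this brings cannot be told apart from the genotype.

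Depth was 28217840 to 35483865 counts for the wild type, and 22682534, 26289581 and 10678819 counts for replicates 1, 2 and 3 of set-25. Ribosomal RNA, gene rows and repeat rows together, took 3.43 to 4.93% of the counts in wild-type libraries. It took 11.7, 4.01 and 26.3% in set-25 libraries 1 to 3. Summed germ line markers stood at 1640 to 1807 CPM (counts scaled to library size) and summed oocyte markers at 6706 to 7779 CPM over all libraries, which fitted the label of adults. Early embryo markers, which bear on carried embryos, summed to only 5.45 to 11.9 CPM. Transcripts of set-25 itself were still counted in the mutant. They stood at 69.8, 65.9 and 66.8 CPM in control and at 59.1, 59.3 and 50.7 CPM in set-25, a log2 fold change of -0.24 (edgeR quasi-likelihood test, adjusted p = 0.0328), and the table does not resolve the lesion within the gene.

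Most CER copies gave few or no reads. No count was seen for 106 copies in any library, 339 copies had under 10 counts over all 12 libraries, and 9 had 1000 or more. By mean level over all libraries, 1 copy was at 100 CPM or more, 6 were between 10 and 100 CPM, 25 between 1 and 10 CPM, and 424 above 0 but under 1 CPM. The 8 highest copies held 87.3% of all CER counts, and LTR parts held 4.26%. The repeat family LTRCER1 is not counted in this share, since its name does not begin with CER. Of the positive CER values 78.7% were not whole numbers, against 57.0% of the positive gene values and 63.0% of the positive values of all repeat copies but ribosomal ones. How the fractions arose was not tested. Copy lengths are not in the table, so levels of different copies are not compared per length. After the filter on low counts, 67 copies in 20 families and 32 families summed over their copies were tested.

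The summed CER level was lower in F0 than in every 20 °C group. It was 605, 620 and 616 CPM in control, 371, 375 and 375 CPM in F0, 578, 617 and 577 CPM in F3, and 643, 687 and 651 CPM in set-25. Every F0 library lay below every library of the other groups, F3 overlapped control, and every set-25 library lay above every control library. The difference of the mean log2 levels was -0.72 for F0 against control, -0.06 for F3 against control and 0.11 for set-25 against control, with exact two-sided permutation p = 0.1, 0.3 and 0.1, where 0.1 is the smallest value that 3 against 3 libraries allow. The set-25 difference dropped to 0.01 (exact permutation p = 0.8) when levels were scaled to summed gene counts alone.

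**Figure D1:**
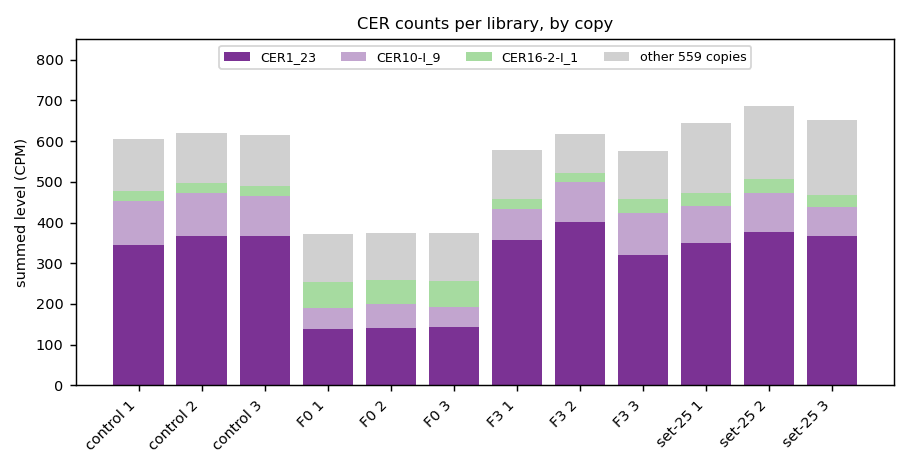
Summed level of all CER copies in each library in CPM (y axis), with 3 copies drawn separately and the other 559 copies in grey. F0 libraries sit at 371 to 375 CPM and the other libraries at 577 to 687 CPM, and the CER1_23 segment is the one that shortens most in F0.

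A single copy carried most of this. CER1_23, the Cer1 element on chromosome III, stood at 345, 366 and 367 CPM in control and at 139.0, 140.6 and 142.3 CPM in F0. It returned to 356, 402 and 321 CPM in F3 and stood at 350, 377 and 368 CPM in set-25. The F0 libraries were far below all others, while control, F3 and set-25 overlapped. In F0 it fell by 1.35 (log2; SE 0.08, adjusted p = 2.11e-09), which is 2.55-fold lower, and in F3 against control the log2 fold change was 0.00 (SE 0.07, adjusted p = 0.996). It made up 56.9 to 59.6% of the CER counts in control and 37.4 to 37.9% in F0. Without CER1_23, the summed CER level was 261, 254 and 249 CPM in control and 232, 234 and 233 CPM in F0, a log2 difference of -0.13 with groups that still did not overlap (exact permutation p = 0.1, the smallest possible). The other 23 copies of CER1 held 0.15% of the family's counts.

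In the order of rows, retr-1, a gene of the retrotransposon-like class, directly follows CER1_23, and F44E2.11 is the nearest gene row before the copy. This order does not show whether retr-1 lies inside or outside the element. The repeat copies LTRCER1_17 and LTRCER1_18 belong to a family whose name falls outside the CER rule. The retr-1 row moved far less than CER1_23. retr-1 stood at 143, 145 and 149 CPM in control, 130, 132 and 133 CPM in F0, 145, 157 and 139 CPM in F3, and 143, 141 and 139 CPM in set-25. It fell in F0 by 0.14 (log2; SE 0.04, adjusted p = 0.0113). The ratio of CER1_23 to retr-1 was 2.41 to 2.52 in control, 2.31 to 2.56 in F3 and 2.45 to 2.68 in set-25, and was 1.07 in each F0 library. All F0 ratios lay below all others (exact permutation p = 0.1 against control, the smallest possible). Both LTRCER1 copies fell in F0, LTRCER1_17 by 0.85 (SE 0.09, adjusted p = 3.65e-06) and LTRCER1_18 by 0.60 (SE 0.08, adjusted p = 1.34e-04) on the log2 scale. Whether the copy and the gene row share reads, and whether reads of both strands were counted for the copy, was not tested, since no source used here gives the strand setting.

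**Figure D2:**
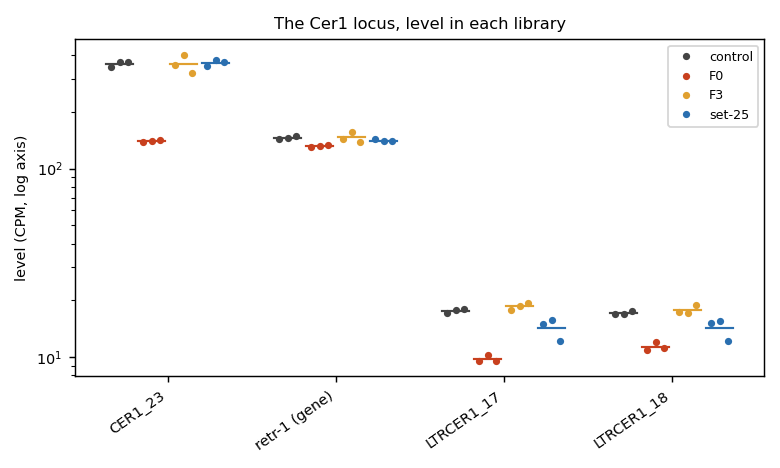
Level of CER1_23, retr-1, LTRCER1_17 and LTRCER1_18 in each library (points) with the mean of each group (bars), on a log axis in CPM. F0 libraries of CER1_23 sit at 139.0 to 142.3 CPM against 321 CPM or more elsewhere, while retr-1 spans 130 to 157 CPM over all libraries.

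At 25 °C, lower CER levels were more common than higher ones. In F0 against control, 3 CER families were higher and 11 lower of the 32 tested, against a background of 17.6% of all 159 repeat families called in either direction. The median log2 fold change was -0.33 over the CER families and 0.00 over all repeat families. Among single copies, 4 were higher and 23 lower of 67, against 7.68% of all 1146 repeat copies tested, with medians of -0.46 for CER copies and -0.06 for all. Internal parts made up most of the calls, with 25 of 47 tested internal copies and 2 of 20 tested LTR copies called. Of the 29 tested copies on chromosome V, 2 were higher and 15 lower, and of the 10 on chromosome IV, 4 were lower and 0 higher. The lower copies on chromosome V include near-identical pairs of CER9-I and a block of adjacent CER10-I copies, and shares by chromosome over all repeat copies were not computed. Near-identical copies are counted separately here. Counted as 1 each, the calls were 4 higher and 20 lower of 64.

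The families that fell included CER9-I, CER8-I and CER10-I, internal parts that encode the element's proteins where they are intact. CER9-I stood at 8.17, 7.61 and 6.21 CPM in control and at 2.09, 2.74 and 2.22 CPM in F0, with no overlap, and fell by 1.64 (log2; SE 0.17, adjusted p = 1.48e-07). CER10-I stood at 110, 108 and 101 CPM in control and at 53.1, 59.6 and 49.7 CPM in F0, and fell by 0.98 (SE 0.10, adjusted p = 3.09e-06). CER8-I stood at 3.958, 4.193 and 3.996 CPM in control and at 1.90, 1.90 and 2.22 CPM in F0, and fell by 1.01 (SE 0.17, adjusted p = 1.10e-04). In each of the 3 families the highest F0 library lay below the lowest control library. CER3-I fell by 0.71 (adjusted p = 1.27e-04) and CER2-I by 0.46 (adjusted p = 0.0038). CER16-I, CER15-I and the LTR parts CER2-1-LTR, CER9-LTR and CER12-1-LTR also fell, by 0.39 to 1.08 on the log2 scale.

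Against that trend, CER16-2-I, CER7-I and CER16-LTR were higher in F0. CER16-2-I stood at 59.1, 58.4 and 58.8 CPM in control and at 106, 98.8 and 108 CPM in F0, and rose by 0.83 (log2; SE 0.08, adjusted p = 1.26e-07). CER7-I stood at 2.30, 2.96 and 2.39 CPM in control and at 4.63, 4.17 and 5.39 CPM in F0, and rose by 0.88 (SE 0.15, adjusted p = 8.84e-05). CER16-LTR rose by 0.72 (SE 0.20, adjusted p = 0.0142) from a mean of 0.757 CPM. The lowest F0 library lay above the highest control library in all 3 families.

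**Figure D3:**
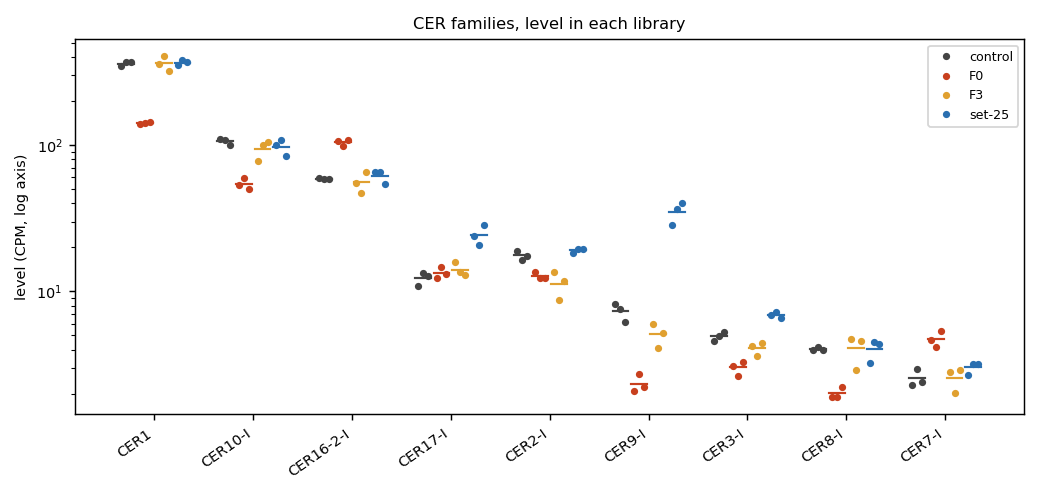
Level of 9 CER families in each library (points) with the mean of each group (bars), on a log axis in CPM. F0 sits below control in CER1, CER10-I, CER2-I, CER9-I, CER3-I and CER8-I and above it in CER16-2-I and CER7-I, and set-25 sits above control in CER17-I, CER9-I and CER3-I.

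Copies of a family did not all move alike. Within CER16-2-I, 2 of 8 tested copies rose in F0 and 3 fell. CER16-2-I_1, on chromosome I beside the protein-coding gene C27C7.1, stood at 25.7, 26.3 and 26.1 CPM in control and at 63.1, 59.2 and 63.9 CPM in F0, and rose by 1.25 (log2; SE 0.11, adjusted p = 1.22e-06). CER16-2-I_8, on chromosome X beside the protein-coding gene H11L12.1, stood at 6.49, 6.63 and 5.80 CPM in control and at 20.3, 17.5 and 21.1 CPM in F0, and rose by 1.64 (SE 0.10, adjusted p = 5.88e-09). CER16-2-I_12 and CER16-2-I_13, next to each other on chromosome IV, fell by 1.45 (SE 0.21, adjusted p = 2.41e-04) and by 1.65 (SE 0.23, adjusted p = 1.34e-04). CER16-2-I_12 stood at 0.969 to 1.02 CPM in control and at 0.304 to 0.440 CPM in F0, so the copies of 1 family lay on opposite sides of their control ranges. CER16-2-I_19 on chromosome III fell by 0.38 (SE 0.10, adjusted p = 0.0237).

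Of the 4 copies that rose in F0, CER16-2-I_1, CER16-2-I_8 and CER7-I_10 lay beside a gene row that rose and CER16-LTR_7 did not. C27C7.1 rose by 1.30 (SE 0.11, adjusted p = 7.09e-06) and H11L12.1 by 1.92 (SE 0.12, adjusted p = 5.05e-09) on the log2 scale in F0. The ratio of CER16-2-I_1 to C27C7.1 was 1.06 to 1.08 in control and 1.03 in every F0 library, and that of CER16-2-I_8 to H11L12.1 was 2.08 to 2.36 in control and 1.796 to 1.879 in F0. Whether these rows hold the same reads was not tested, and no source used here says how reads on both a gene and a repeat were counted. CER7-I_10 on chromosome V rose by 1.70 (SE 0.15, adjusted p = 1.15e-06), from 0.994, 1.30 and 0.973 CPM to 3.47, 3.30 and 3.92 CPM, and the next gene row, ZC132.4, which stood at 0.101 to 0.212 CPM in control, rose by 1.82 (SE 0.44, adjusted p = 0.00425). The low-count filter could have kept ZC132.4 for its F0 level, so the call of this gene row is not independent of the filter. CER16-LTR_7 on chromosome V rose by 1.51 (SE 0.33, adjusted p = 0.00724), from 0.249, 0.210 and 0.249 CPM to 0.750, 0.656 and 0.656 CPM. At that control level the low-count filter could have kept the copy for its F0 libraries, so this call is not independent of the filter. Of the gene rows beside CER16-LTR_7, B0391.10 fell by 0.49 (SE 0.06, adjusted p = 1.89e-05) and F28F8.10 was not called, with a log2 fold change of 0.05 (SE 0.16, adjusted p = 0.841).

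Several family calls rest on 1 copy. With the highest copy of each family left out, 1 CER family was higher and 7 lower of 27 tested in F0. CER1 then had a log2 fold change of 0.22 (adjusted p = 0.729) and CER7-I one of -0.33 (adjusted p = 0.405), each with the opposite sign. CER16-LTR, CER16-I and CER2-1-LTR were no longer called, with log2 fold changes of 0.09, -0.44 and -0.39 and adjusted p of 0.928, 0.568 and 0.435. The calls of CER15-I and CER12-1-LTR were also lost (adjusted p = 0.0736 and 0.0507). CER10-I, CER9-I, CER8-I and CER3-I remained lower, with log2 fold changes of -1.64, -1.52, -1.02 and -0.71 and adjusted p of 1.61e-07, 3.93e-07, 7.03e-04 and 0.00257.

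In CER10-I, 4 of 4 tested copies were lower in F0. CER10-I_9 on chromosome X held 95.9% of the family's counts and stood at 108, 106 and 97.4 CPM in control and at 52.1, 58.6 and 48.9 CPM in F0, a fall by 0.96 (SE 0.12, adjusted p = 3.46e-05). Its neighbouring gene row Y81B9A.1 was at 0.0526 CPM or less in every library. CER10-I_2, CER10-I_3 and CER10-I_5 form a block on chromosome V between T23B12.8 and pxn-1. CER10-I_2 stood at 1.63, 1.35 and 1.88 CPM in control and at 0.331, 0.508 and 0.415 CPM in F0, and fell by 1.93 (SE 0.19, adjusted p = 3.37e-06). The others of the block fell by 1.49 and 1.69 on the log2 scale.

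In CER9-I, 8 of 10 tested copies were lower and 0 higher in F0. These 8 include 3 pairs whose values agreed within 1 count in every library, so the values do not separate the members of a pair. CER9-I_2 lies beside W09B7.2 and CER9-I_10 beside F07B7.2, 2 gene rows on chromosome V that also carry equal values. Summed over the pair, CER9-I_2 and CER9-I_10 had 64.4, 69.0 and 37.5 counts in control and 5.2, 11.3 and 4.5 counts in F0. The ratio of F0 to control was 0.115 (exact 95% interval 0.0693 to 0.181, for counting error only). Such an interval takes the summed values of a pair as separate reads, which was not tested. Each copy fell by 3.00 (log2; SE 0.38, adjusted p = 6.33e-05). The pair CER9-I_3 and CER9-I_11 had 33.6, 41.4 and 33.7 counts in control and 3.2, 2.9 and 3.2 in F0, a ratio of 0.0772 (0.0344 to 0.152). F07B7.2 itself fell in F0 by 3.26 (log2; SE 0.26, adjusted p = 6.27e-08).

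**Figure D4:**
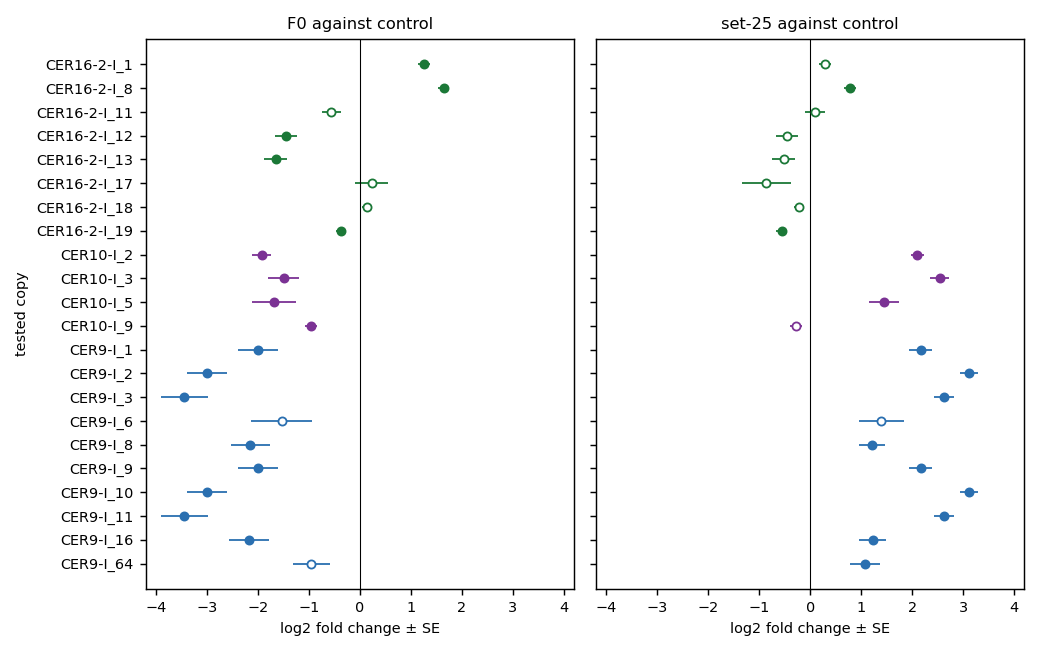
Log2 fold change with its SE (x axis) of the tested copies of CER16-2-I (green), CER10-I (purple) and CER9-I (blue), for F0 and for set-25 against control. Filled points have an adjusted p under 0.05. CER9-I copies reach -3.44 in F0 and 3.12 in set-25, and CER16-2-I copies span -1.65 to 1.64 in F0.

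F0 animals also differed from control in markers of cell types, which stand beside these counts, where 28.6% of all 14545 genes tested were called. All 5 tested sperm markers of 8 were higher in F0. The summed level of the 8 was 17.8 to 23.9 CPM in F0 against 0.730 to 3.52 CPM in control. Outside F0, spe-11 and ssp-31 stood at 0.246 CPM or less in every library, so the low-count filter kept them for their F0 level. The untested spe-9, spe-38 and spe-42 had means of 0.182, 0.0632 and 0.0886 CPM in control and 0.199, 0.103 and 0.123 CPM in F0. Of 7 oocyte markers 3 were lower and 0 higher, with sums of 6825 to 7107 CPM against 7438 to 7608 CPM. Germ line markers had 1 higher and 2 lower of 8, with sums of 1716 to 1806 CPM against 1720 to 1727 CPM. Early embryo markers had 2 higher and 0 lower of 6 tested, with sums of 11.0 to 11.9 CPM against 5.75 to 7.78 CPM. Of these 2, sdz-6 stood at 0.107 to 0.156 CPM in control, so the low-count filter kept it for its level in other groups. Among somatic lists, intestine markers had 1 higher and 2 lower of 6, with sums of 2248 to 2316 CPM in F0 against 2560 to 2619 CPM in control. Muscle markers had 2 higher and 0 lower of 4, with sums of 1411 to 1649 CPM against 1181 to 1338 CPM. Epidermis markers had 1 higher and 0 lower of 4, with sums of 1394 to 1525 CPM against 1137 to 1169 CPM. Neuron markers had 0 called of 4, with sums of 132.7 to 136.3 CPM against 128.6 to 129.7 CPM. The part of these differences in the CER levels was not tested.

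Genes of the pathways that act on repeats moved by small amounts in F0. Among 27 listed genes of germline and nuclear small RNA pathways, 0 were higher and 12 lower, with a median of -0.11, beside 2419 higher and 1743 lower and a median of 0.01 over 14545 genes. mut-7, a 3′ to 5′ exonuclease of the mutator complex, fell by 0.27 (SE 0.04, adjusted p = 6.3e-05), and rde-8, an endonuclease of RNA interference, by 0.28 (SE 0.05, adjusted p = 2.13e-04). Among 18 genes around H3K9 methylation, 1 was higher and 2 were lower. cec-4, a reader of methylated H3K9 at the nuclear periphery, rose by 0.57 (SE 0.06, adjusted p = 2e-06), while the methyltransferase genes met-2 and set-25 fell by 0.18 (SE 0.04, adjusted p = 0.00115) and by 0.34 (SE 0.07, adjusted p = 0.00189).

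After 3 generations back at 20 °C, almost no single CER family or copy was distinguishable from control. In F3 against control, 0 CER families were higher and 1 lower of 32, against a background of 3.14% of repeat families, and 0 copies were higher and 2 lower of 67, against 2.01% of repeat copies. Called or not, 46 of the 67 CER copies were lower and 21 higher. The median log2 fold change was -0.18 over CER copies and 0.00 over all repeat copies. Over families the medians were 0.00 for CER and 0.01 for all. At an unadjusted p under 0.05 there were 4 families and 9 copies, and DESeq2 called 0 families higher and 2 lower and 0 copies higher and 3 lower. CER2-I was the family called. It stood at 18.9, 16.3 and 17.5 CPM in control, 13.6, 12.4 and 12.3 CPM in F0, 13.6, 8.70 and 11.7 CPM in F3, and 18.4, 19.5 and 19.6 CPM in set-25. F3 and F0 overlapped each other and both lay below all control libraries. In F3 it fell by 0.63 (log2; SE 0.11, adjusted p = 8.45e-04).

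The called copies both belong to 1 Cer2 locus on chromosome II. CER2-I_3 held 89.6% of the family's counts, lies between R03D7.2 and R03D7.3, and stood at 17.7, 14.4 and 15.8 CPM in control and at 12.11, 7.108 and 9.595 CPM in F3. It fell by 0.73 (SE 0.14, adjusted p = 0.00618). CER2-LTR_4, between metr-1 and R03D7.2, stood at 1.39, 1.56 and 1.39 CPM in control and at 0.860, 0.900 and 0.805 CPM in F3, and fell by 0.77 (SE 0.17, adjusted p = 0.0223). R03D7.2 fell by 0.97 (SE 0.11, adjusted p = 1.99e-04), with 10.8, 9.71 and 10.1 CPM in control and 6.06, 4.23 and 5.31 CPM in F3. Without CER2-I_3 the family's log2 fold change in F3 was 0.07 (adjusted p = 0.935). The call of CER2-LTR_4 did not pass the threshold when any 1 of the 6 libraries was left out (adjusted p = 0.0542 to 0.175) nor with DESeq2 (adjusted p = 0.241), and that of CER2-I_3 did not pass with only the 6 libraries compared (adjusted p = 0.0503). CER9-I, the family with the next smallest p, had a log2 fold change of -0.51 in F3 (SE 0.16, adjusted p = 0.079). It passed the threshold with DESeq2 (adjusted p = 0.0336) and with scaling to summed gene counts alone (adjusted p = 0.0213). It also passed without control replicate 3 (adjusted p = 0.0488) and without F3 replicate 1 (adjusted p = 0.0334). No gene of the H3K9 or small RNA lists was called in F3, where 38 of 14545 genes were.

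**Figure D5:**
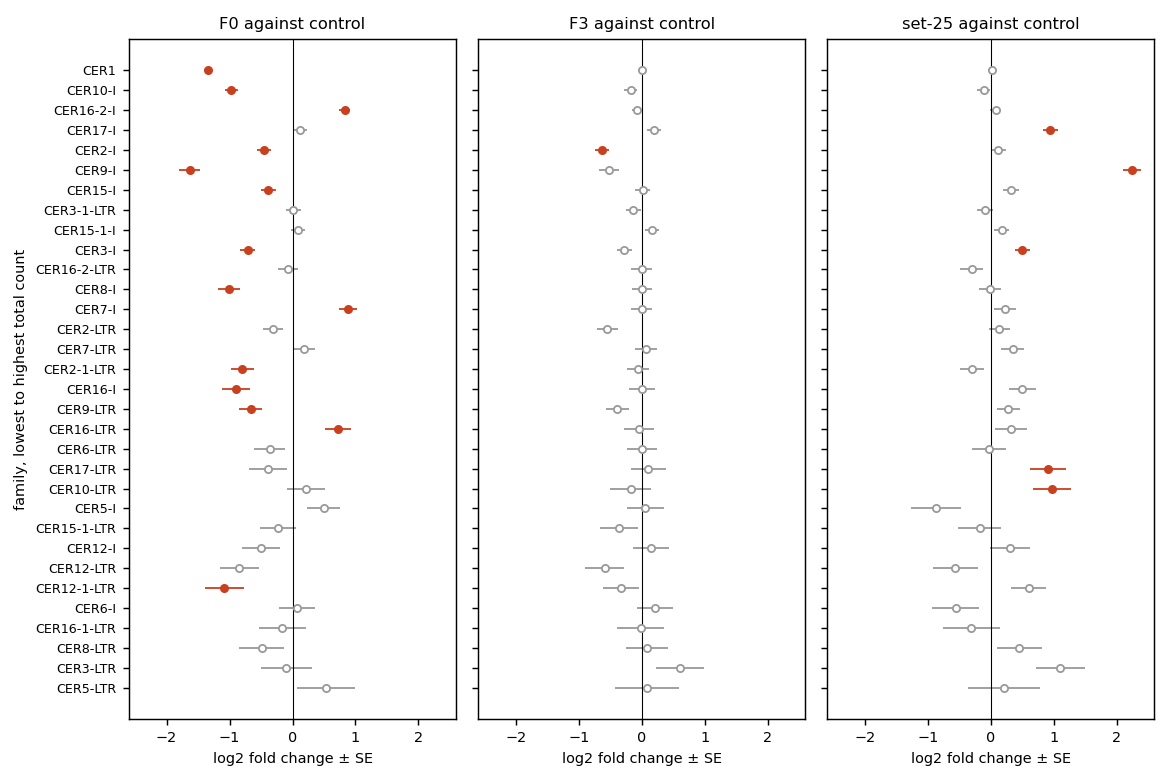
Log2 fold change with its SE (x axis) of the 32 tested CER families, ordered by total count (y axis), for F0, F3 and set-25 against control. Filled red points have an adjusted p under 0.05, which are 14 families in F0, 1 in F3 and 5 in set-25.

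The direct comparison of F3 with F0 shows the size of the return, and it shares its F0 libraries with the comparison of F0 with control and its F3 libraries with that of F3 with control. In F3, 8 CER families were higher than in F0 and 3 lower of 32, against a background of 11.9% of repeat families, and 16 copies were higher and 4 lower of 67, against 4.54% of repeat copies. The number of copies called depended on the libraries, with 10, 13, 9, 13 and 10 called without F0 replicates 1, 2 and 3 and F3 replicates 1 and 3, 12 called by DESeq2 and 11 with only the 6 libraries compared. Without F3 replicate 3, 7 families were called. CER1 was 2.55-fold higher in F3 (log2 1.35, SE 0.06, adjusted p = 1.22e-13). CER9-I had a log2 fold change of 1.12 (SE 0.18, adjusted p = 8.87e-05), with F3 values of 6.033, 4.121 and 5.199 CPM that lay above every F0 library and below every control library. CER8-I had one of 1.01 (SE 0.17, adjusted p = 1.48e-04) and CER10-I one of 0.80 (SE 0.10, adjusted p = 4.98e-05). CER16-2-I and CER7-I were lower than in F0, by log2 fold changes of -0.90 (SE 0.08, adjusted p = 4.3e-08) and -0.88 (SE 0.15, adjusted p = 1.45e-04). CER2-I was not called, with a log2 fold change of -0.17 (SE 0.12, adjusted p = 0.489).

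In the set-25 strain CER9-I was the family with the highest change. It stood at 28.2, 36.7 and 40.0 CPM against 8.17, 7.61 and 6.21 CPM in control, and rose 4.73-fold (log2 2.24, SE 0.14, adjusted p = 2.67e-11). All set-25 libraries lay above every library of the other groups. CER17-I stood at 24.1, 20.6 and 28.6 CPM against 10.9, 13.3 and 12.8 CPM and rose by 0.95 (log2; SE 0.12, adjusted p = 2.9e-06). CER3-I stood at 6.91, 7.29 and 6.61 CPM against 4.61, 4.95 and 5.29 CPM and rose by 0.50 (SE 0.12, adjusted p = 0.0056). The LTR parts CER10-LTR and CER17-LTR rose by 0.97 and 0.90 (SE 0.31 and 0.28, adjusted p = 0.0264 for each), from means of 0.525 and 0.569 CPM. In total 5 families were higher and 0 lower of 32, against a background of 18.9% of repeat families, and the median log2 fold change was 0.19 over CER families and 0.12 over all repeat families. The share of CER families called, 15.6%, was near the background. Without control replicate 3 the count was 3, with DESeq2 it was 3, and with set-25 libraries 1 and 3 both left out it was 2.

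CER1, the family that fell most in counts at 25 °C, was not called in set-25, with a log2 fold change of 0.02 (SE 0.06, adjusted p = 0.842). CER16-2-I and CER10-I as families were not called either, with log2 fold changes of 0.08 (SE 0.09, adjusted p = 0.558) and -0.11 (SE 0.10, adjusted p = 0.484).

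Among copies, 17 were higher and 2 lower of 67 in set-25, against 6.37% of all repeat copies, and 14 higher and 2 lower of 64 when near-identical copies were counted as 1. Copies of low level could be kept by the filter for their set-25 level, so these counts are not independent of it. All 19 were internal parts, and 14 of the 17 higher copies lay on chromosome V, which held 29 of the 67 tested copies. Those on chromosome V include the near-identical pairs of CER9-I and a block of adjacent CER10-I copies. Shares by chromosome over all repeat copies were not computed. Leaving out set-25 replicate 2, the deepest of its group and the one with the lowest ribosomal share, left 11 higher and 1 lower. The set-25 libraries were the least alike, and the part of their depth and ribosomal share in these calls was not tested. With set-25 libraries 1 and 3 both left out, 14 copies were higher and 0 lower.

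Of the 10 tested CER9-I copies, 9 were higher in set-25 and 0 lower, with log2 fold changes of 1.07 to 3.12 over the 10. Some of them passed the low-count filter through their set-25 level, so this count is not independent of the filter. The pair CER9-I_1 and CER9-I_9 had 26.3, 20.6 and 15.5 counts in control. It had 16.6, 13.6 and 17.5 counts in F3 and 53.4, 85.0 and 21.4 in set-25. The pair CER9-I_2 and CER9-I_10 had 277.0, 424.1 and 148.8 counts in set-25, and each copy stood at 6.67, 8.05 and 9.16 CPM against 1.15, 0.967 and 0.584 CPM in control. Each rose by 3.12 (log2; SE 0.18, adjusted p = 2.97e-09). CER9-I_3 and CER9-I_11 each stood at 2.65, 4.26 and 3.68 CPM against 0.598, 0.580 and 0.525 CPM and rose by 2.62 (SE 0.20, adjusted p = 7.4e-08). The gene rows beside them rose too, F07B7.2 by 2.98 (SE 0.16, adjusted p = 6.72e-10) and F07B7.1 by 2.98 (SE 0.27, adjusted p = 6.83e-07). The ratio of CER9-I_2 to W09B7.2 was 0.272 to 0.319 in control and 0.326 to 0.355 in set-25. Its F0 values of 0.261 to 0.398 overlapped both.

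In CER10-I, 3 of 4 tested copies were higher in set-25 and the copy with most reads was not called. CER10-I_2 on chromosome V stood at 6.434, 7.1997 and 7.078 CPM in set-25 and rose by 2.101 (SE 0.13, adjusted p = 4.4e-09), and CER10-I_3 stood at 3.64, 3.70 and 4.86 CPM and rose by 2.54 (SE 0.18, adjusted p = 5.18e-08). CER10-I_5 in the same block rose by 1.44 (SE 0.30, adjusted p = 0.00551). Its counts were low, so the low-count filter could have kept it for its set-25 level. CER10-I_9 on chromosome X, which holds nearly all reads of the family, stood at 89.6, 95.1 and 71.4 CPM and was not called, with a log2 fold change of -0.27 (SE 0.12, adjusted p = 0.228). The ratio of CER10-I_2 to CER10-I_9 was 0.0127 to 0.0193 in control, 0.0718 to 0.0992 in set-25 and 0.00634 to 0.00867 in F0, with no overlap between these 3 groups. Without CER10-I_9 the family rose in set-25, with a log2 fold change of 2.12 (SE 0.13, adjusted p = 3.78e-12).

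Other copies higher in set-25 were spread over several families. CER17-I_10, on chromosome II between sdz-29 and sdz-28, stood at 23.5, 19.7 and 27.7 CPM against 10.4, 12.8 and 12.3 CPM and rose by 0.97 (SE 0.12, adjusted p = 4.46e-05). sdz-28 rose by 0.68 (SE 0.18, adjusted p = 0.0156) and sdz-29 was not called, with a log2 fold change of 0.45 (SE 0.28, adjusted p = 0.291). sdz-28 is 1 of the early embryo markers, of which 2 of 6 tested were higher in set-25, with sums of 7.86 to 11.9 CPM against 5.75 to 7.78 CPM in control, and their part in the level of CER17-I_10 was not tested. The other marker called, sdz-6, was kept by the low-count filter for its F0 and set-25 levels. CER16-2-I_8 stood at 11.5, 11.2 and 9.29 CPM and rose by 0.78 (SE 0.11, adjusted p = 1.27e-04), with H11L12.1 beside it rising by 0.98 (SE 0.14, adjusted p = 9.75e-05). CER15-I_12 rose by 1.22 (SE 0.16, adjusted p = 4.3e-05), and CER8-I_12 and CER3-I_4 by 1.51 and 1.07. CER8-I_12 and CER3-I_4 had low counts, so the low-count filter could have kept them for their set-25 level. CER16-2-I_19 and CER15-I_4 fell, by 0.56 (SE 0.11, adjusted p = 0.00266) and by 0.75 (SE 0.20, adjusted p = 0.0348).

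The lists of pathway genes moved little in set-25. Of the 18 genes listed around H3K9 methylation 2 were higher and 2 lower, and the list is wider than the enzymes and readers of that mark. Among them mes-3, a component of a Polycomb-like complex, was higher by a log2 fold change of 0.22 (SE 0.04, adjusted p = 8.98e-04). lin-15B was higher by 0.18 (SE 0.04, adjusted p = 0.00986). Of the 27 small RNA genes 3 were higher and 4 lower, with mut-2, a nucleotidyltransferase, higher by 0.22 (SE 0.04, adjusted p = 0.00115). Over all 14545 genes, 1292 were higher and 1178 lower. In F3 against F0, 5 genes of the H3K9 list were higher and 1 lower, and 12 small RNA genes were higher and 0 lower, beside 1889 higher and 2517 lower (30.3%) over all genes.

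The families not named so far account for the remaining copies. CER4-I, CER4-LTR, CER11-I, CER11-LTR, CER13-I, CER13-LTR and CER15-LTR had under 80 counts each over the 12 libraries and were not tested. Of the 32 families tested, 15 were called in none of the comparisons of F0, F3 and set-25 with control, among them CER3-1-LTR at 5.52 to 7.69 CPM and CER15-1-I at 4.99 to 6.48 CPM over all libraries, with overlapping groups. Of the 21 LTR families none reached a mean of 10 CPM in any group. LTRCER1, which the CER rule leaves out, is not among them. Its mean was 35.6 CPM in control and 21.7 CPM in F0.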

How the data were processed

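RNA of 12 libraries (4 groups of 3) was analysed from 1 table that the authors deposited. Its 99761 rows are 45836 genes and 53925 repeat copies, and the deposited values are expected counts made by the authors, many of them fractions, which were rounded before count tests. Per the submitters' processing notes, which state no roles, the tools were DESeq2 1.8.1, featureCounts 1.5.1 and TopHat2 2.1.0. The libraries were made strand-specific from 400 ng of total RNA and read as pairs of 50 bases, per the labels' protocols. No source used here gives the genome build, the annotation, the strand setting or how reads with several matches were treated. The design had assumed whole counts, and the test was kept.

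Levels are CPM on the library size of the gene rows scaled by TMM. Copies, and families summed over copies, were tested with edgeR 4.0.16 in R 4.3.3 (quasi-likelihood, robust, two-sided) in 1 fit of all 12 libraries with a term per group. Rows were kept by filterByExpr (minimum count 10, total 15), so a row high in 1 group could be kept for that group alone. Ribosomal RNA repeats, 2 families, were left out, while ribosomal RNA gene rows stayed in the library size. Benjamini-Hochberg adjustment ran over all 159 families, 1146 copies or 14545 genes tested, and an adjusted p under 0.05 is a call. The SE is the log2 fold change divided by the root of F. A value counts as whole within 1e-06, and copies as near-identical within 1 count in every library. Single values were compared by an exact permutation test. The labels call the libraries biological replicates. Alternatives were other scalings, DESeq2 1.42.0, limma 3.58.1 on log2 values with a prior count of 2, no filter, fewer libraries and a replicate block. The methods were tested on simulated data.

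Neighbouring genes are the nearest gene rows in the order of the table. That order follows start positions of the WBcel235 annotation in 99.4% of 39440 neighbouring pairs of matched genes on 1 chromosome, from which chromosomes were taken. Positions and sequences of copies are not used here. Listed genes without a symbol row were matched by the sequence name in the RefSeq gene table.

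Members, gene lists and tests were chosen with earlier results of these data known. Values by library are given for called CER families (at most 8, smallest p first), the 5 highest families, at most 6 called copies per comparison by smallest p, and the highest copy of each of those 5 families. Of the gene lists at most 2 members per comparison, and set-25, are named. Copies and neighbouring genes named beyond this rule were chosen after their values were seen. Of the columns of sample values, 0 were unused.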

Additional observations from a re-analysis of the deposited data

How the results depend on the processing

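The counts of called families and copies in F0 stayed within 1.5 times the reported ones under other scalings, DESeq2, limma, no filter, fewer libraries and each library left out. Leaving out the highest copy of each family gave 8 families in F0, 0 in F3 and 7 in F3 against F0 (in place of 14, 1 and 11). It turned the sign of CER1 (0.22 in F0 and -0.24 in F3 against F0), CER7-I (-0.33 and 0.51), CER2-I (0.07 in F3 against control and 0.73 in F3 against F0) and CER10-I (2.12 in set-25), which follows from removing that copy's counts. Without CER1_23 the summed CER level in F3 against F0 was -0.02 on the log2 scale in place of 0.66. For F3 against control, scaling to summed gene counts gave 2 families and 1 copy, DESeq2 2 families, and limma and the 6 libraries alone 1 copy each. For F3 against F0, DESeq2 called 12 copies and the 6 libraries alone 11. For set-25, DESeq2 called 3 families and leaving out set-25 libraries 1 and 3 together left 2, with the lone library assumed to vary like the other groups. The cause of these differences was not tested. With 1 library left out at a time, calls ranged from 1 to 2 families and 1 to 3 copies in F3, from 3 to 5 families and 12 to 19 copies in set-25, and from 7 to 10 families and 9 to 15 copies in F3 against F0. Among the fold changes of named families and copies, 1200 alternative values kept their side of the threshold, 33 no longer passed it and 13 newly did. Scaling without a composition factor moved log2 differences by at most 0.093.

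Replicate numbers did not pair the libraries, since libraries with the same number had correlated deviations of -0.207 to 0.116 and not every pair was above 0.1. A fit with a replicate block called 14 families in F0, 1 in F3, 7 in set-25 and 11 in F3 against F0, and 28, 2, 18 and 15 copies. Of the 562 copies, 339 had under 10 counts in all 12 libraries, and a change in them was not detectable at this depth. Leaving out the highest copy, CER1_23, or counting near-identical copies as 1 was chosen after seeing the data.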
